A study of Mus musculus with 15 samples.

Results

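A group of 4 chemokine system genes was followed in mouse spleen after radiation injury, namely the ligands Cxcl12, Cxcl13 and Ccl19 and the receptor Cxcr4. They were chosen by name and make up 4 of the 561 genes measured with NanoString's nCounter Mouse Immunology Panel, in which each captured mRNA molecule is counted by its colour-coded barcode. Each of 5 groups held 3 samples. All mice were female C57BL/6J young adults. Sham mice were neither irradiated nor burned. The study's methods for the burn model say that their procedure was otherwise the same. WBIR mice were exposed over the whole body to 9 Gy in a cesium irradiator, and RCI mice received the same dose together with a full-thickness contact burn of 20% of the body surface. The burn came with tribromoethanol anaesthesia, morphine by injection and in the drinking water, and Lactated Ringer's solution. None of these is described for mice that were only irradiated, so WBIR may differ from Sham in them as well. In the WBIR+MSC-EVs and RCI+MSC-EVs groups, extracellular vesicles from a bone marrow mesenchymal stem cell line of C57BL/6J mice were given intravenously 72 hours after injury, and spleens were taken 48 hours later. The sample labels name PBS as the vehicle for RCI alone. The study's text gives saline to untreated mice, sham-injured mice included, at the same times. RNA came from suspensions of spleen cells after red cell lysis, and the yield of stromal cells in such suspensions was not measured.

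CXCL12 is made by perivascular, reticular and endothelial cells, and it holds haematopoietic progenitors and lymphocytes in their niches through the receptor CXCR4. CXCL13, from follicular stroma, draws B cells into follicles through CXCR5, and CCL19, from T zone stroma, draws T cells and dendritic cells through CCR7. In the spleen both lymphoid chemokines are maintained by lymphotoxin from lymphocytes, which acts on the lymphotoxin beta receptor of stromal cells and on non-canonical NF-kB signalling.

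The promoters of the genes are shown because the 3 ligands rose together in RCI. Each sequence is the 250 bases before the RefSeq start in GRCm38.p6, written 5′ to 3′ on the strand of the gene. They lie at chr6:117168285-117168534 on the plus strand for Cxcl12, chr5:95956689-95956938 on the plus strand for Cxcl13, chr4:42756366-42756615 on the minus strand for Ccl19 and chr1:128592300-128592549 on the minus strand for Cxcr4. Capitals mark matches, on either strand, to TATAAA, the core promoter element known as the TATA box.
Cxcl12: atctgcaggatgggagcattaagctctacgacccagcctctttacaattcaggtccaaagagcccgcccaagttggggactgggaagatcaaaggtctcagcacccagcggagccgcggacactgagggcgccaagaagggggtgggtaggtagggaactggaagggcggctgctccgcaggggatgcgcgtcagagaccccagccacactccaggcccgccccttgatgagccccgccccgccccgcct
Cxcl13: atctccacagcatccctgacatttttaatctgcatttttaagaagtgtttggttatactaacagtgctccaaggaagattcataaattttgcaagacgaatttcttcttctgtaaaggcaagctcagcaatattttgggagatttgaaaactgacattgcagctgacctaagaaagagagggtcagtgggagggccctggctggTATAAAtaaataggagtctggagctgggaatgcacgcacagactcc
Ccl19: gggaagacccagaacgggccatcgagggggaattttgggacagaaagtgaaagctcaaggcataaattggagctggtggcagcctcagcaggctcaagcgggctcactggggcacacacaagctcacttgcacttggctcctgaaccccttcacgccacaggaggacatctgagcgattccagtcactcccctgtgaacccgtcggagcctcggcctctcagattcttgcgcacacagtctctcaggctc
Cxcr4: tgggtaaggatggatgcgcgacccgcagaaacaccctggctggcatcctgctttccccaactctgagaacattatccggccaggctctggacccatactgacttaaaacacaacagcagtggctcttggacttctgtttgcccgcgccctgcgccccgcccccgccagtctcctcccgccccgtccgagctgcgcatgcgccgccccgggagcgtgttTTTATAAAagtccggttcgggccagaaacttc
TATAAA was found 46 to 41 bases before the start of Cxcl13, and in Cxcr4 on both strands, where the 2 matches overlap and span bases 32 to 25 before the start. Of 32851 promoter windows of the same length, 4063 (12.37%) held it. The Cxcl12 and Ccl19 windows did not, which says only that these letters are not there.

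Total counts per sample ranged from 90127 to 598872, with a median of 360995. Values below are counts scaled to the geometric mean of the 14 reference genes of the panel, named scaled counts. Differences are log2 fold changes (log2FC) from edgeR's quasi-likelihood test with their standard error (SE), and a gene was called at a Benjamini-Hochberg adjusted p under 0.05 over 426 genes tested. All 4 members were tested. The median log2FC over all these genes was -0.74 in WBIR and -0.53 in RCI against Sham, and trimmed mean (TMM) scaling moved these medians up by 0.71 and 0.54. RCI replicate 3 and WBIR+MSC-EVs replicate 1 stood apart from their groups over the panel, and WBIR replicate 1 stood apart for the ligands. These libraries are treated below where they move a member. For Sham replicate 2 the factor that divides its counts was 0.408 from the reference genes and 0.731 with TMM, so its scaled counts depend on the scaling. As the assay reads bulk cells, fewer cells of a type and less RNA per cell cannot be told apart.

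Cxcr4 had the largest difference from Sham of the 4 members in every injured group. Its scaled counts in Sham were 2413, 2651 and 3373 in replicates 1, 2 and 3. In WBIR they were 111, 117 and 126, and in RCI they were 103, 165 and 144. All 6 samples lay far below the lowest Sham sample, with no overlap, and the WBIR samples were close together. The mean in WBIR was 4.19% of the Sham mean and that in RCI was 4.89%. With edgeR, Cxcr4 fell by 4.57 on the log2 scale in WBIR (SE 0.30, adjusted p = 3.96e-08) and by 4.36 in RCI (SE 0.29, adjusted p = 6.14e-08). The fall in WBIR ranked 9 among 426 genes by size and 3 by p.

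Cxcr4 was also lower than Sham after MSC-EVs. Scaled counts were 215, 166 and 237 in WBIR+MSC-EVs and 164, 252 and 307 in RCI+MSC-EVs. These means were 7.33% and 8.56% of that in Sham. The log2FC against Sham was -3.77 (SE 0.28, edgeR adjusted p = 2.28e-07) after WBIR+MSC-EVs and -3.55 (SE 0.28, edgeR adjusted p = 3.55e-07) after RCI+MSC-EVs. The mean levels ran from WBIR (118 ± 7.44, SD, n = 3) through RCI (137 ± 31.6), WBIR+MSC-EVs (206 ± 36.2) and RCI+MSC-EVs (241 ± 72.0) to Sham (2812 ± 499.8). Of the neighbours in this order, WBIR overlapped RCI and WBIR+MSC-EVs overlapped RCI+MSC-EVs. RCI ended at 165.4 and WBIR+MSC-EVs began at 166.2, a gap smaller than the SD of either group, while RCI+MSC-EVs lay far below Sham.

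Markers of lymphocytes, which carry much of the CXCR4 of the spleen, fell alongside it. All 8 B cell markers on the panel were called lower in WBIR and in RCI (7 and 8 with TMM scaling), and so were all 13 T cell markers under both scalings. The summed scaled count of the B cell markers was 16224 to 17542 in Sham and 670.4 to 1485.7 in the injured groups, and that of the T cell markers was 9995 to 23402 in Sham and 2415 to 5284 in the injured groups. Neutrophil markers, summed, went from 7143 to 40418 in Sham to 1322 to 9182 in the injured groups. No B or T cell marker had a count of 1 in any sample. Per 100 counts of the B and T cell markers together, Cxcr4 had 6.69 to 12.7 counts in Sham, 2.80 to 3.36 in WBIR and 2.08 to 4.66 in RCI. Cxcr4 was thus lower than Sham relative to the pooled B and T cell markers, with no overlap. The lack of overlap depends on the pooling. In RCI replicate 3 the Cxcr4 scaled count was 144 beside a B cell sum of 670.4. In Sham replicate 3 it was 3373 beside 16559. Relative to the B cell markers alone, RCI replicate 3 was thus not below Sham, while the other RCI samples and all WBIR samples were. The part of other cell types in the difference was not tested.

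Cxcl12 rose in all 4 injured groups. Scaled counts were 72.1, 142 and 141 in Sham, 854, 246 and 268 in WBIR, and 750, 1028 and 1043 in RCI. Every injured sample was above every Sham sample, and WBIR replicate 1 lay far above the other WBIR samples. The log2FC was 1.95 in WBIR (SE 0.48, edgeR adjusted p = 0.00223), a 3.87-fold difference, and 3.00 in RCI (SE 0.49, edgeR adjusted p = 0.000108), an 8.0-fold difference. Without WBIR replicate 1 the rise in WBIR was 1.13 and was still called (edgeR adjusted p = 0.0161).

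After MSC-EVs the Cxcl12 scaled counts were 918, 535 and 366 in WBIR+MSC-EVs and 478, 625 and 602 in RCI+MSC-EVs. Against Sham these were rises of 2.36 (SE 0.48, edgeR adjusted p = 0.000665) and 2.27 (SE 0.48, edgeR adjusted p = 0.000881) on the log2 scale. The mean levels ran from Sham (118 ± 40.2, SD, n = 3) through WBIR (456 ± 345), RCI+MSC-EVs (569 ± 79.3) and WBIR+MSC-EVs (606 ± 283) to RCI (940 ± 165). Only the step from Sham to WBIR separated neighbours without overlap.

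Ccl19 rose in WBIR, in WBIR+MSC-EVs and in RCI. It was near the low end of the assay in Sham, with raw counts of 11 to 21 and scaled counts of 14.1, 26.9 and 16.1. Scaled counts were 162, 32.4 and 36.2 in WBIR, and 118, 80.9 and 50.6 in WBIR+MSC-EVs. In RCI they were 87.0, 69.5 and 128, and in RCI+MSC-EVs 36.1, 48.3 and 51.1. No injured sample overlapped Sham. The log2FC against Sham was 2.07 in WBIR (SE 0.59, edgeR adjusted p = 0.00626), 2.16 in WBIR+MSC-EVs (SE 0.60, edgeR adjusted p = 0.00538) and 2.39 in RCI (SE 0.59, edgeR adjusted p = 0.00239). Without WBIR replicate 1 the difference in WBIR was 0.92 and was not called (edgeR adjusted p = 0.0711). In RCI+MSC-EVs the log2FC was 1.32 (SE 0.59) and not called (edgeR adjusted p = 0.0638), while TMM scaling gave 1.63 and a call (edgeR adjusted p = 0.0285). RefSeq lists further copies and pseudogenes of Ccl19 in the mouse, and whether the probe tells them apart was not tested.

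Cxcl13 was called only in RCI. Scaled counts were 15.7, 46.5 and 45.3 in Sham, 113, 20.3 and 27.0 in WBIR, and 70.6, 64.0 and 36.3 in WBIR+MSC-EVs. In RCI they were 106, 85.1 and 386, and in RCI+MSC-EVs 67.2, 83.9 and 61.7. Both RCI groups lay above Sham without overlap, and both WBIR groups overlapped it. The log2FC in RCI was 2.46 (SE 0.70, edgeR adjusted p = 0.00615). It rested on RCI replicate 3, without which it was 1.45 and not called (edgeR adjusted p = 0.0541). The difference was 0.59 in WBIR, 0.67 in WBIR+MSC-EVs and 1.02 in RCI+MSC-EVs, with edgeR adjusted p = 0.466, 0.405 and 0.208, and 95% intervals of -0.92 to 2.09, -0.84 to 2.18 and -0.48 to 2.51. Without WBIR replicate 1 the WBIR difference turned to -0.56.

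**Figure D1:**
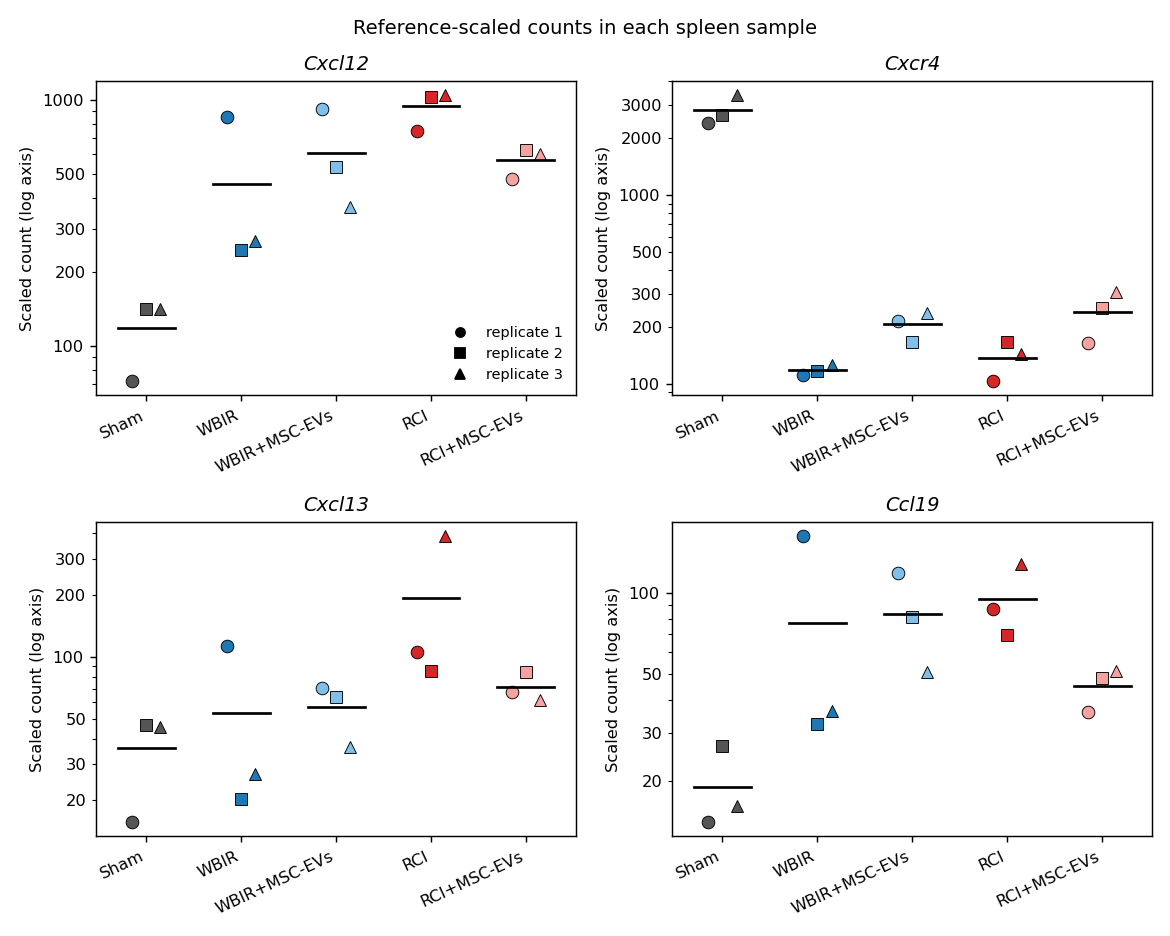
Scaled counts of the 4 genes (log axes) in each of the 15 samples, by group, with marker shape for the replicate number and a line at the group mean. Cxcr4 lies between 103 and 307 in all injured samples against 2413 to 3373 in Sham, and replicate 1 of WBIR is the highest WBIR sample for all 3 ligands.

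Read against the panel, the counts of members called were 2 higher (Cxcl12 and Ccl19) and 1 lower (Cxcr4) in WBIR, where 21.6% of the tested genes were called higher and 46.9% lower. Cxcl12, Cxcr4 and Ccl19 did not overlap Sham there, nor did 71.1% of genes. The same members were called in WBIR+MSC-EVs, where 22.8% of genes were higher and 45.1% lower and 69% did not overlap Sham. In RCI all 3 ligands were higher and Cxcr4 lower, with 26.5% of genes higher and 43% lower, and none of the 4 overlapped Sham, as was so for 64.6% of genes. In RCI+MSC-EVs only Cxcl12 was higher and Cxcr4 lower, beside 23.9% and 41.3% of genes, though all 4 were without overlap, as were 70.4% of genes. Most of the panel thus differed from Sham, and a call on its own sets no member apart. By size, the rise of Cxcl12 in RCI ranked 20 among 426 genes, that of Cxcl13 ranked 31 and that of Ccl19 ranked 36. The study's own text singles out Cxcl12 and Cxcr4 from the same samples for the MSC-EV effect, so the choice of these genes is not independent of the data. With nSolver, it reports Cxcr4 as significantly higher after MSC-EVs in WBIR. It lists Cxcl12 among genes that RCI lowered and MSC-EVs improved. Here Cxcl12 was higher in RCI than in Sham and lower after MSC-EVs, and edgeR called neither MSC-EV difference.

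**Figure D2:**
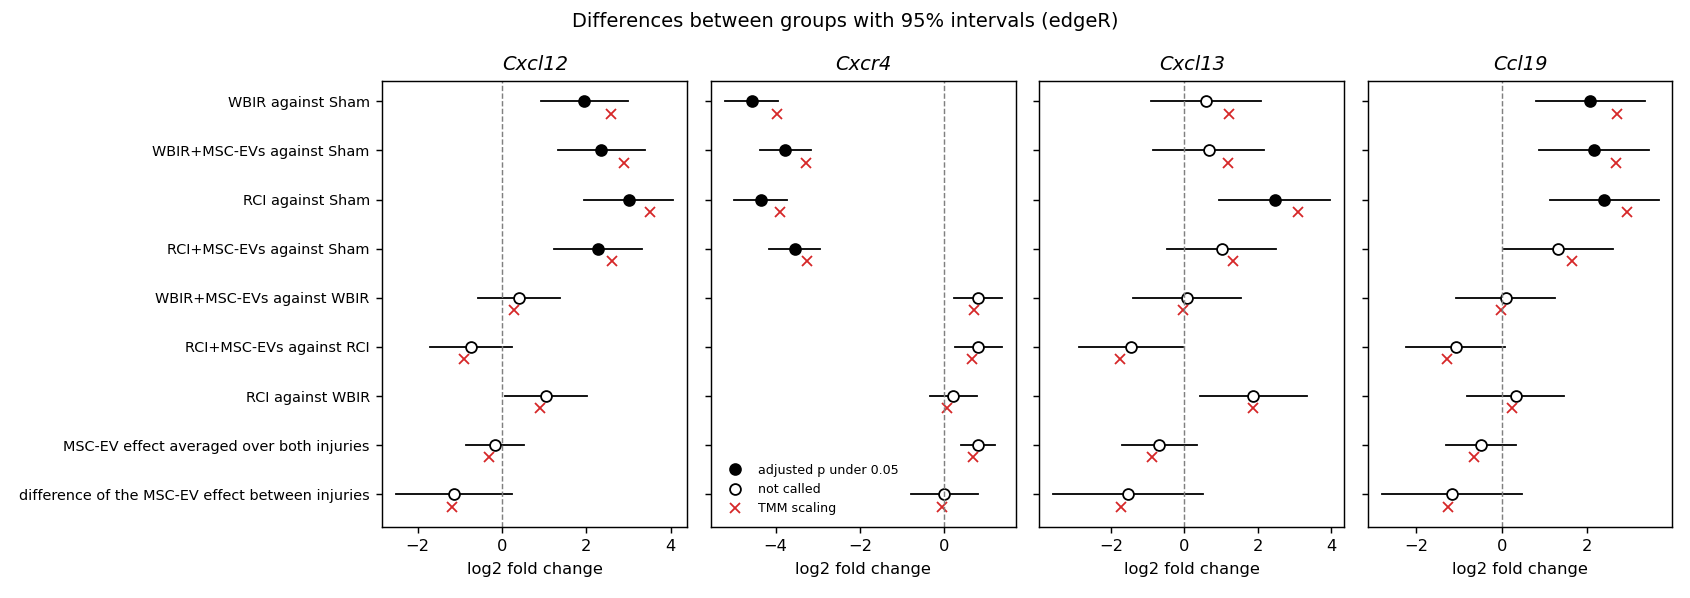
Log2 fold change of each gene in the 9 comparisons (circles, filled where called by edgeR) with 95% intervals (lines), and the value under TMM scaling (crosses). The 4 comparisons against Sham place Cxcr4 at -4.57 to -3.55 and Cxcl12 at 1.95 to 3.00, and no filled circle appears in a comparison among injured groups.

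Cxcl12, Cxcl13 and Ccl19 varied together within the WBIR samples. From its lowest to its highest sample, WBIR spanned 3.47-fold for Cxcl12, 5.59-fold for Cxcl13 and 5.0-fold for Ccl19, against 1.13-fold for Cxcr4. WBIR replicate 1 was the highest sample for each ligand. The ratio of Ccl19 to Cxcl12 counts, by contrast, stayed within 1.44-fold over the WBIR samples and that of Cxcl13 to Ccl19 within 1.19-fold. The 9 stromal and endothelial markers on the panel did not share this order. In replicate 1, 4 of them were at their highest of the WBIR samples (Cdh5, Clu, Fn1 and Bst1), 4 were at their lowest (Vcam1, Tgfbi, Icam1 and Pecam1), and Pdgfrb lay between. Cdh5, an endothelial cadherin, had a scaled count of 42.5 against 20.3 and 15.2 in the other WBIR samples. Clu, found in follicular stroma and other cells, had 1461 against 594 and 773, whereas Vcam1, an adhesion molecule, had 1898 against 3589 and 3371, and Pecam1, of endothelium, had 844 against 1078 and 1117. The summed scaled count of the 9 markers was lowest in replicate 1, at 5706 against 7443 and 7388, and it was 3144 to 4417 in Sham and 3237 to 9488 in RCI. Of the 8 that were tested, 3 were called higher and 1 lower in WBIR, and 3 higher and 0 lower in RCI, among them Clu (log2FC 1.22 in WBIR and 1.65 in RCI) and Cdh5 (0.71 in WBIR, not called, and 1.65 in RCI). The median log2FC of these 8 was 0.88 in WBIR and 0.93 in RCI, beside -0.74 and -0.53 over all genes. Vcam1 was also on the list of macrophage and monocyte markers, so the list of 9 is not specific to stromal and endothelial cells. The summed scaled count of the macrophage and monocyte markers was likewise lowest in WBIR replicate 1, at 11682 against 19683 and 20133. The sum of the 9 markers is therefore not read as the stromal content of a sample. Pdgfrb, a marker of perivascular and reticular cells, was not tested for its low counts, with a count of 1 in 1 Sham sample. The part of a change in stromal cells in the ligand values was not tested.

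The RCI samples showed another arrangement. Cxcl12 spanned only 1.39-fold and Ccl19 1.84-fold from the lowest to the highest RCI sample, while Cxcl13 spanned 4.54-fold because of replicate 3. In that library Pdgfrb had a scaled count of 37.9 against 9.87 and 14.4 in the others. Vcam1 had 399.6 against 4171 and 4166, and Tgfbi, a matrix protein, had 441 against 1549.7 and 1595. Cxcl12 in replicate 3, at 1043, was within the spread of its group. The ratio of Cxcl13 to Ccl19 counts was 0.625 to 0.744 in WBIR and 0.600 to 0.792 in WBIR+MSC-EVs, and 1.22 to 3.01 in RCI and 1.21 to 1.86 in RCI+MSC-EVs. Both burned groups thus lay above both groups without the burn in this ratio, with no overlap, although Sham at 1.12 to 2.81 overlapped the burned groups. This comparison was chosen after the values were seen and has no test.

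**Figure D3:**
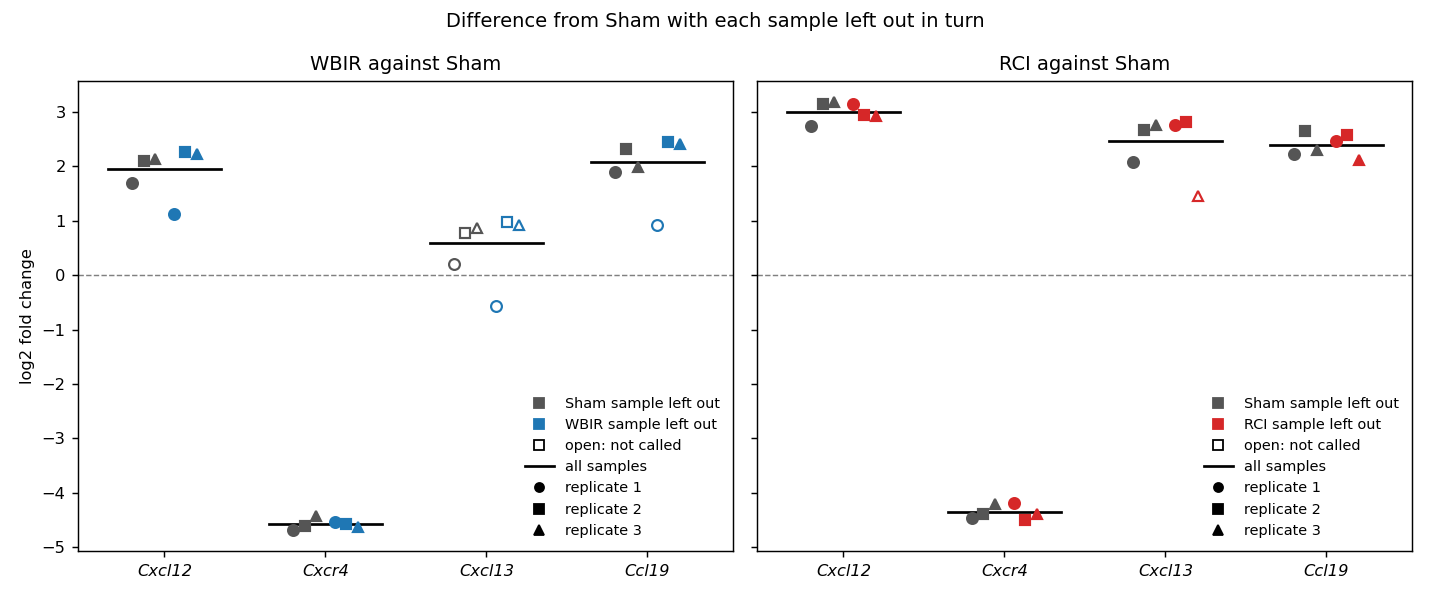
Log2 fold change of the 4 genes against Sham with each Sham, WBIR or RCI sample left out in turn (shape for the replicate, open where edgeR made no call, line for all samples). Cxcr4 stays near its value, whereas leaving out WBIR replicate 1 takes Ccl19 to 0.92 and leaving out RCI replicate 3 takes Cxcl13 to 1.45.

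The ligand count over the receptor count within a sample needs no scaling, and it was higher than in Sham for each of the 3 pairs in every injured sample. A higher ratio can come from the receptor alone, and Cxcl13 itself was called in RCI only. Since each probe has its own efficiency, only the change of a ratio between samples is read. There were 0.0299 to 0.0536 Cxcl12 counts per Cxcr4 count in Sham. The ratio was 2.09 to 7.72 in WBIR, 1.55 to 4.27 in WBIR+MSC-EVs, 6.22 to 7.27 in RCI and 1.97 to 2.92 in RCI+MSC-EVs. All 12 injured samples were above Sham, and RCI lay above RCI+MSC-EVs with no overlap. On the log2 scale the mean ratio exceeded that of Sham by 6.32 in WBIR and by 7.41 in RCI.

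The receptors of the other ligands, Cxcr5 and Ccr7, fell as Cxcr4 did. Cxcr5, the follicular homing receptor of B cells, had a log2FC of -4.15 in WBIR (SE 0.42, edgeR adjusted p = 1.52e-06) and -4.12 in RCI (SE 0.42, edgeR adjusted p = 1.65e-06). Ccr7, the T zone homing receptor, had -2.92 in WBIR (SE 0.30, edgeR adjusted p = 1.7e-06) and -2.57 in RCI (SE 0.29, edgeR adjusted p = 5.07e-06). The counts of Cxcl13 per Cxcr5 count were 0.0181 to 0.211 in Sham and 0.741 to 14.1 in the injured samples, and those of Ccl19 per Ccr7 count were 0.00807 to 0.0133 and 0.0776 to 0.851. No injured sample reached the Sham range in either ratio. The scavenging receptor Ackr4, listed under its older name Ccrl1, had raw counts of 1 to 18 and was not tested.

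**Figure D4:**
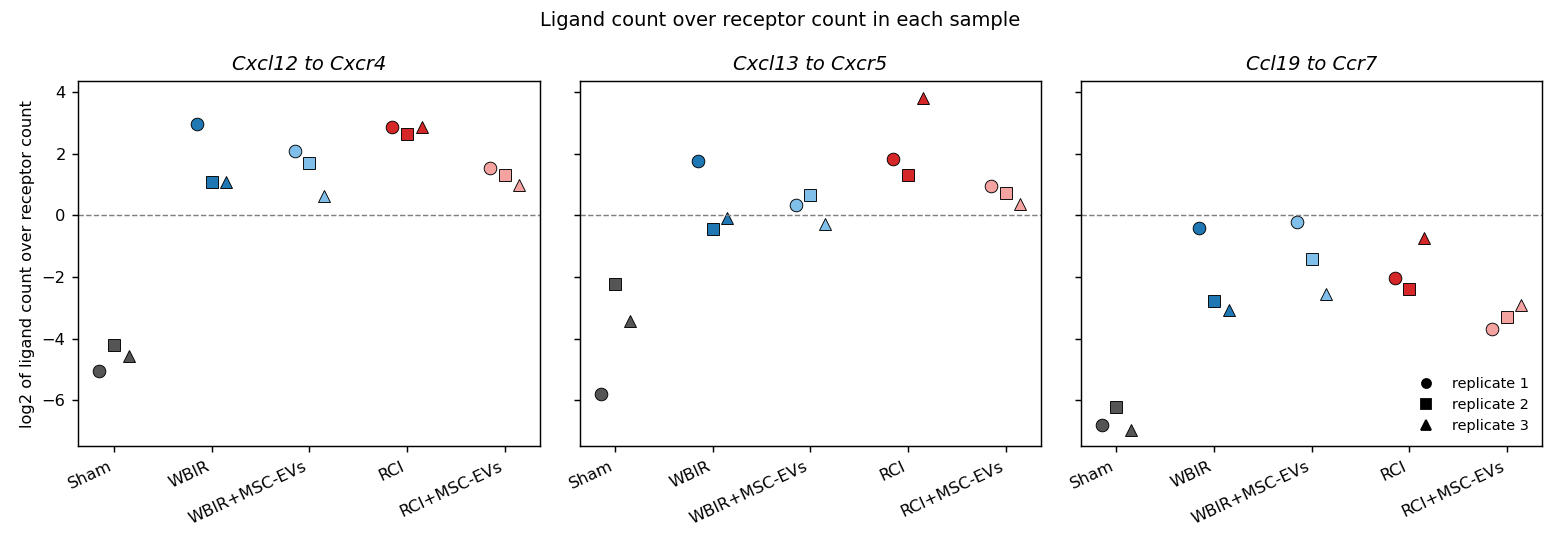
Log2 of the ligand count over the receptor count in each of the 15 samples, by group, with marker shape for the replicate number. All injured samples lie above the 3 Sham samples for each of the 3 pairs, and the Cxcl12 to Cxcr4 ratio is tight in RCI at 6.22 to 7.27 counts per count.

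Among the listed genes of lymphotoxin and non-canonical NF-kB signalling, the receptor gene Ltbr rose where the ligand gene Ltb fell. A link of the listed genes to the Cxcl13 and Ccl19 values was not tested. Of the 18 listed genes 16 were on the panel and 15 were tested, of which 2 were called higher and 9 lower in WBIR, and 3 higher and 5 lower in RCI. The median log2FC of the list was -0.95 in WBIR and -0.53 in RCI, close to the -0.74 and -0.53 of all genes. With TMM scaling the lower calls were 5 in WBIR and 4 in RCI. Ltbr, the lymphotoxin beta receptor, rose by 2.13 (SE 0.31, edgeR adjusted p = 3.89e-05) in WBIR and by 3.12 (SE 0.32, edgeR adjusted p = 1.7e-06) in RCI on the log2 scale. Tnfrsf11a, the receptor RANK, rose by 1.56 and 1.86. Ltb, the membrane anchor of lymphotoxin, fell by 2.82 in WBIR (SE 0.29) and by 2.20 in RCI (SE 0.28), and Tnfrsf13c, the B cell survival receptor BAFF-R, fell by 4.62 in WBIR and fell by 4.41 in RCI. Each of these 8 differences was called under reference and TMM scaling. Relb and Nfkb2, whose products form the non-canonical dimer, had log2FC of -1.65 and -1.40 in WBIR, called with reference scaling but not with TMM, and of -0.53 and -0.42 in RCI, not called.

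Of the 23 other chemokine ligands on the panel, 12 had enough counts to be tested. In WBIR 3 were called higher and 1 lower, beside 21.6% and 46.9% of all genes, and in RCI 7 higher and 1 lower, beside 26.5% and 43%. TMM scaling gave 5 higher and 1 lower in WBIR and 9 higher and 1 lower in RCI. The median log2FC of the list was 0.72 in WBIR and 1.84 in RCI, beside -0.74 and -0.53 over all genes. Ccl24, an eosinophil chemokine, had the largest rise in both (7.10 and 7.10, SE 0.99 in each). Ccl2, the monocyte chemokine, rose in RCI by 4.97 (SE 0.95), and its WBIR value of 1.81 was not called. Of 18 chemokine receptors besides Cxcr4, Cxcr5 and Ccr7 among them, 12 were tested, with 2 called higher and 7 lower in WBIR and 2 higher and 8 lower in RCI, against the same shares of all genes. With TMM scaling there were 3 higher and 4 lower in WBIR and 2 higher and 7 lower in RCI. Cx3cr1, the fractalkine receptor of monocytes and macrophages, and Ccr3, the eosinophil receptor, were the ones called higher in both injuries. The largest falls were those of Cxcr5 and, in WBIR, Ccr6 at -4.02, and in RCI, Cxcr2 at -3.72.

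RCI, set against WBIR in untreated mice, gave no call for any of the 4 genes, with 0.704% of all genes called higher and 0% lower. In this comparison the burn cannot be told apart from the anaesthesia, morphine and fluid that came with it. Cxcl12 differed by 1.05 on the log2 scale (SE 0.45, 95% interval 0.07 to 2.02, edgeR adjusted p = 0.259) and Cxcl13 by 1.88 (SE 0.68, interval 0.42 to 3.33, edgeR adjusted p = 0.172), both higher in RCI. Ccl19 differed by 0.33 (interval -0.81 to 1.46) and Cxcr4 by 0.22 (interval -0.35 to 0.78). WBIR replicate 1 reached into or past the RCI range for the 3 ligands, and 27% of all genes did not overlap. Without WBIR replicate 1 both Cxcl12 (1.87, edgeR adjusted p = 0.0255) and Cxcl13 (3.03, edgeR adjusted p = 0.0383) were called. They were among 8 of 426 genes called in that fit, against 3 with all samples. Without RCI replicate 3, Cxcl13 was 0.86.

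MSC-EVs were compared with no treatment within each injury, and none of the 4 genes was called, nor was any of the 426 genes (0% in each injury). At an unadjusted edgeR p under 0.05 there were 11 genes in WBIR (2.58%), 14 in RCI (3.29%) and 14 in the average over both (3.29%), and Cxcr4 was among them each time. Cxcr4 was higher after MSC-EVs in all 6 pairs of samples with the same replicate number, by 1.42-fold to 1.94-fold in WBIR and by 1.52-fold to 2.13-fold in RCI. In WBIR the treated samples lay above the untreated with no overlap, which 8.92% of genes did in either direction. Any pairing of these WBIR samples therefore gives a rise. The share of all genes that rose in all 6 pairs was not computed. In RCI the groups overlapped. The log2FC was 0.80 in WBIR (SE 0.26, 95% interval 0.23 to 1.37, edgeR adjusted p = 0.997) and 0.81 in RCI (SE 0.26, interval 0.25 to 1.37, edgeR adjusted p = 0.848). Averaged over both injuries it was 0.80 (SE 0.19, interval 0.41 to 1.203), with the smallest p of the 426 genes (edgeR adjusted p = 0.296). DESeq2 called this average at the same size (adjusted p = 0.0310), and edgeR with untreated and treated samples paired by number gave an adjusted p = 0.0791. The difference between the injuries was 0.01 (interval -0.80 to 0.81).

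No T or B cell marker was called between treated and untreated samples, of 13 and 8 tested in each injury. In RCI the median log2FC was 0.42 for the T cell and 0.48 for the B cell markers, beside 0.12 over all genes, and in WBIR it was 0.15 and -0.0013, beside 0.11. The summed scaled count of the T cell markers was 2415 to 4091 in RCI and 4043 to 5284 in RCI+MSC-EVs, and that of the B cell markers was 670.4 to 1231 and 1060.2 to 1486. Both sums overlapped between the groups, were lowest in RCI replicate 3, and for the B cell markers went from 1159.6 to 1060.2 in pair 1. In WBIR the T cell markers summed to 2463 to 3149.97 and, with MSC-EVs, to 2789 to 3433, and the B cell markers to 1005 to 1325 and 1033 to 1167. Per 100 counts of B and T cell markers, Cxcr4 had 4.2 to 5.23 counts in WBIR+MSC-EVs against 2.80 to 3.36 in WBIR, without overlap. It had 3.00 to 5.54 in RCI+MSC-EVs against 2.08 to 4.66 in RCI, with overlap. The Cxcr4 level after MSC-EVs remained far below Sham in every sample.

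For the ligands no MSC-EV difference was called in either injury. In RCI, Cxcl12, Cxcl13 and Ccl19 were all lower in RCI+MSC-EVs than in RCI with no overlap between the groups. This held for 10.8% of all genes in either direction. Each was lower in 3 of 3 pairs, but without overlap any pairing of the samples gives that count. The log2FC was -0.73 for Cxcl12 (SE 0.45, interval -1.69 to 0.24), -1.45 for Cxcl13 (SE 0.66, interval -2.87 to -0.02) and -1.08 for Ccl19 (SE 0.54, interval -2.24 to 0.08), each with edgeR adjusted p = 0.989. The value of Cxcl13 was -0.43 without RCI replicate 3. Cxcl12 was the most even, with treated samples at 0.638, 0.608 and 0.578 of the untreated sample with the same number. The 8 stromal and endothelial markers tested had a median log2FC of 0.059 in this comparison, beside 0.12 over all genes, and none was called. Of these, Cdh5 had scaled counts of 41.3 to 55.1 in RCI and 22.7 to 29.9 in RCI+MSC-EVs, while Vcam1 had means of 2912 in RCI and 3842 in RCI+MSC-EVs and Pecam1 had 1272 and 1476. Their part in the ligand values was not tested.

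In WBIR the treated and untreated samples overlapped for all 3 ligands. Cxcl12 was higher with MSC-EVs in 3 of 3 pairs, by 1.07-fold, 2.17-fold and 1.37-fold, and Cxcl13 and Ccl19 were higher in 2 of 3. The log2FC was 0.40 for Cxcl12 (interval -0.57 to 1.38), 0.08 for Cxcl13 (interval -1.38 to 1.55) and 0.09 for Ccl19 (interval -1.07 to 1.25), each with edgeR adjusted p = 0.997. The difference of the MSC-EV effect between the injuries, RCI minus WBIR, was -1.13 for Cxcl12 (SE 0.64), -1.53 for Cxcl13 (SE 0.95) and -1.17 for Ccl19 (SE 0.76), each with edgeR adjusted p = 0.998.

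**Figure D5:**
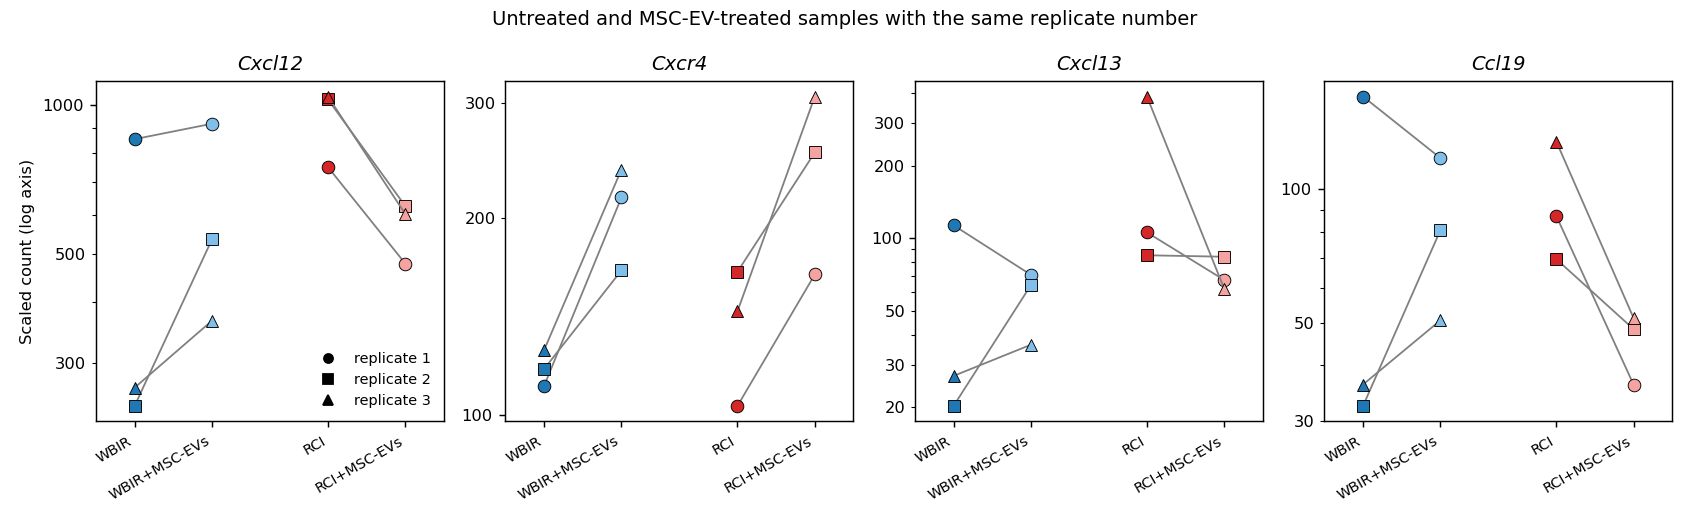
Scaled counts (log axes) of the 4 genes in untreated and MSC-EV-treated samples, joined where they carry the same replicate number, in WBIR (blue) and RCI (red). All 6 Cxcr4 lines rise, and the Cxcl12 lines rise in WBIR and fall in RCI.

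Genes whose values ran most like each member over the 15 samples were found as those with the smallest root mean square difference of log2 scaled counts, after centring each gene, among the other 425 genes. For Cxcl12 these were C1s (0.42 log2 units), Ccl19 (0.48) and C1ra (0.48), and C1s and C1ra encode the proteases that start the classical complement pathway. For Ccl19 they were Serping1 (0.37), the inhibitor of those proteases, Cxcl12 (0.48) and Cxcl10 (0.54), an interferon-induced chemokine. For Cxcl13 they included C3 (0.43), the central complement protein, and Csf1 (0.61), the macrophage growth factor. For Cxcr4 they were Il7r (0.36), the interleukin 7 receptor of lymphocytes, Icosl (0.46), a costimulatory ligand, and H2-DMb2 (0.47), of antigen loading. Il7r had a mean scaled count of 4297 in Sham, 188 in WBIR and 277 in RCI, and Serping1 had 22.5, 58.2 and 115. The points share library and scaling, so that this likeness is a description.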

How the data were processed

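The 15 spleen samples were assayed on the nCounter Mouse Immunology Panel. Per the file, the authors deposited unscaled barcode counts (whole numbers, none at 0, the smallest being 1 in 13 samples), and nSolver was their tool for normalisation. No background from control probes was taken off. Counts were scaled to the geometric mean of 14 reference genes. The test covered the 426 of 547 endogenous genes whose mean count reached 20, using edgeR 4.0.16 in R 4.3.3 (robust quasi-likelihood, two-sided, 5 group coefficients, 10 residual degrees of freedom), with Benjamini-Hochberg adjustment within each of 9 comparisons. The common dispersion of 0.110 is a coefficient of variation of 33.1%, so that depth limits mainly genes with few counts.

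The members, gene lists and tests were chosen with earlier results of these data known. Named were the 4 members, their receptors, of each list at most the 2 largest called rises and falls, and the 3 genes most like each member (1 of them is not reported here); Relb, Nfkb2 and the markers named for single libraries were chosen after their values were seen. Replicates are taken from the labels, and whether they are 3 mice is not stated, so p-values measure only the spread between these samples. Deviations of same-numbered untreated and treated samples correlated over genes at 0.677, 0.389 and 0.243 in WBIR and 0.261, 0.331 and 0.522 in RCI, so numbers were taken to pair samples within an injury. This choice came from the same data, and samples with different numbers were not correlated. With Sham and across injuries, correlations of same-numbered samples went down to -0.494. Alternatives were TMM, median-of-ratios and 7 stable reference genes for scaling, no filter, DESeq2 1.42.0, limma 3.58.1 on log2 values with a pseudocount of 10 or 1, a replicate block, and each sample left out. The fit was tested on simulated data. Promoter sequences are from RefSeq, and all 4 members matched by symbol.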

Additional observations from a re-analysis of the deposited data

Results flagged for a closer look

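Cxcl12 was flagged because its MSC-EV difference had opposite signs in the 2 injuries. This was not particular to Cxcl12. Cxcl13 (0.08 in WBIR and -1.45 in RCI) and Ccl19 (0.09 and -1.08) had the same signs. Their differences between the injuries, -1.53 and -1.17, were larger in size than that of Cxcl12. The level of Cxcl12 was higher in 3 of 3 WBIR pairs and lower in 3 of 3 RCI pairs. The share of all genes with such a pattern was not computed. The RCI groups did not overlap, so any pairing gives the count in RCI. For Cxcl12 the difference between the effects was a log2FC of -1.13 (SE 0.64, adjusted p = 0.998 by edgeR). With samples paired by number within each injury it was -1.28 (SE 0.27, adjusted p = 0.692 by edgeR). Neither passed over all 426 genes, and without WBIR+MSC-EVs replicate 1 the difference in WBIR was -0.014.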

How the results depend on the processing

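Of 36 log2 fold changes of the 4 genes, 22 kept their direction and their side of the threshold under every alternative run, among them all 8 of Cxcl12 and Cxcr4 against Sham. For Ccl19 in RCI+MSC-EVs against Sham a call appeared with TMM (1.63), median-of-ratios (1.61), the stable reference genes (1.62) and DESeq2 (1.30). DESeq2 also called the averaged MSC-EV effect on Cxcr4 (0.80). For Cxcl13 in RCI against Sham the call was lost without both RCI replicate 3 and WBIR+MSC-EVs replicate 1 (1.45), a fit chosen after seeing the data. That fit turned the MSC-EV difference in WBIR to -0.012 for Cxcl12, -0.064 for Cxcl13 and -0.21 for Ccl19.

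Values near 0 changed sign with the setting, none of them called. The difference of the MSC-EV effect on Cxcr4 between injuries was -0.049 with TMM, -0.10 with median-of-ratios, -0.034 with the stable reference genes and -0.0027 with limma at a pseudocount of 1. With the replicate block over all groups it was -0.0056. The MSC-EV difference in WBIR was -0.028 for Cxcl13 and -0.027 for Ccl19 with TMM, -0.010 and -0.012 with the stable reference genes, and -0.00034 for Ccl19 with median-of-ratios.

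Leaving out a single sample gave these ranges. The MSC-EV difference in WBIR ran from -0.014 to 1.23 for Cxcl12, from -0.31 to 1.23 for Cxcl13 and from -0.28 to 1.23 for Ccl19. The averaged MSC-EV effect ran from -0.37 to 0.25 for Cxcl12 and from -0.68 to 0.077 for Ccl19, both highest without WBIR replicate 1. The difference of the Cxcr4 effect between injuries ran from -0.21 to 0.22. RCI against WBIR ran from 0.75 to 1.87 for Cxcl12, from 0.86 to 3.03 for Cxcl13 and from -0.043 to 1.47 for Ccl19. Cxcl12 and Cxcl13 were among the 8 of 426 genes called without WBIR replicate 1. Against Sham, Cxcl13 ran from -0.56 to 0.98 in WBIR and from 1.45 to 2.81 in RCI, and Ccl19 ran from 0.92 to 2.44 in WBIR and from 1.14 to 1.57 in RCI+MSC-EVs, where it was called without WBIR replicate 1 (1.32) and without WBIR replicate 2 (1.31). The block over all groups changed no other call, and the pairing within an injury made no call over all genes in the MSC-EV comparisons (25 genes in WBIR, 51 in RCI and 45 averaged at an unadjusted p under 0.05). With Cxcr4 it gave 0.78 and 0.79, and with Cxcl12 0.56 in WBIR and -0.72 in RCI, with edgeR adjusted p = 0.749 and 0.278.

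With 3 samples per group and raw Ccl19 counts of 11 to 21 in Sham, differences of the ligands are limited by counting error and by single libraries. The cause of each change with the setting was not tested.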

Other observations

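Cells other than lymphocytes that carry or meet these chemokines were read from the marker lists. Of 8 macrophage and monocyte markers tested, 5 were called higher in WBIR and 5 in RCI (7 in each with TMM scaling), and none lower, beside 21.6% and 26.5% of all genes called higher. The summed scaled count of this list, which shares Vcam1 with the stromal list, was 2347 to 4132 in Sham, 11682 to 20133 in WBIR and 18429 to 36823 in RCI. Of 5 neutrophil markers tested, 4 were called lower in each of these injuries (3 in WBIR and 4 in RCI with TMM scaling), beside 46.9% and 43% of all genes. The progenitor markers Kit and Cd34, of cells that CXCL12 holds in the niche, summed to 32.3 to 52.2 in Sham. They summed to 22.3 to 45.0 in WBIR and 40.8 to 87.4 in RCI, and both overlapped Sham. With MSC-EVs the sums were 12.6 to 33.1 in WBIR+MSC-EVs and 27.6 to 38.6 in RCI+MSC-EVs, both below RCI without overlap. Cd34 alone had a mean scaled count of 53.1 ± 20.4 (SD, n = 3) in RCI and 21.4 ± 12.7 in Sham, a difference called with TMM but not with reference scaling. Kit went the other way, at 11.8 ± 5.54 in RCI and 19.8 ± 5.08 in Sham, and was not tested for its low counts.

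Lta, the soluble lymphotoxin subunit, had 212 ± 78.5 scaled counts in Sham, 59.8 ± 20.7 in WBIR and 69.1 ± 17.5 in RCI. Cxcl9, an interferon-induced ligand, rose by 1.98 in WBIR and 2.29 in RCI on the log2 scale, both called by edgeR. Ccl9 fell by 2.17 in WBIR and rose by 1.87 in RCI against the same Sham samples. Lta, Kit and Cd34 were chosen after their values were seen.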
